A study of Bos taurus with 48 samples.

Results

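The step from birth to 3 months of age was examined in the longissimus dorsi, the long muscle of the back, of crossbred cattle. The arrays were chosen by their age label alone: 3 arrays labelled birth, which the labels equate with the end of gestation, and 4 arrays labelled 3 months, so 7 of the 48 arrays of the series and 7 of its 36 developmental arrays. Each 2-colour array carried RNA of a Piedmontese × Hereford animal in one channel and RNA of a Wagyu × Hereford animal in the other. Piedmontese cattle are known for heavy muscling and a myostatin mutation, and Wagyu cattle for intramuscular fat. The 14 channels came from 14 different animals by their codes, so 6 newborns (3 of each cross) were set against 8 calves of 3 months (4 of each cross), each animal giving 1 value per gene. The samples were biopsies of whole muscle, which hold vessels, connective tissue, nerve and blood cells beside the fibres. In such bulk RNA, fewer cells of a type and less RNA per cell cannot be told apart.

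At birth a calf passes from placental glucose to fat-rich colostrum and milk, begins to stand and breathe, and meets microbes. In large mammals that are mobile at birth, most embryonic and fetal muscle proteins have by then been replaced by adult ones, and later growth is mainly enlargement of existing fibres with deposition of matrix. MHC class II molecules present peptides to T cells and need the invariant chain CD74 for assembly and the coactivator CIITA for transcription. Myostatin is a growth factor that limits muscle mass, and follistatin (FST) binds and blocks it.

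The arrays read each gene through 60-base oligonucleotide probes, most often 1 per gene. The opening 30 bases of 6 of these probes are printed because the results turn on them: 2 antigen presentation genes, the 2 genes with the largest falls, a ribosomal protein gene, and embryonic myosin. The letters are those of the scanner files, in lower case throughout, and the place of a probe in its transcript was not determined.
CD74: tccatcagccttggacacaactatcatatc
BOLA-DRA: ttttttcctgctacagaacctttggaaagt
OXT: ggcccccgataccgtcggagcgcagccctc
PNMT: ccaatggccctcacccgcctagactccctg
RPS19: agccttcctcaaaaagtccgggaagctgaa
MYH3: atgtgtattttcatggttcctgactctgat

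The 2 ages did not share a slide. The 3 birth arrays lay on slides that also held arrays of 60, 135 and 195 days of gestation, and the 4 arrays of 3 months on slides that also held arrays of 7, 12 and 20 months. The scans fell into 4 sessions, which the ages did not share either. Slide, scan session and age therefore cannot be told apart in any difference given here. The array means of signal over background ranged from 2.26 to 3.17 at birth and from 2.47 to 3.05 at 3 months, and between 57.4% and 71.1% of spots at birth and between 63.5% and 68.2% at 3 months were well above background. Neither measure separated the ages (exact permutation test over arrays, two-sided, p = 0.943 and p = 0.914, with 0.0571 the smallest p that 3 arrays against 4 allow). Genes that mark skeletal muscle fibres were bright in every animal. Creatine kinase (CKM), for example, had log2 intensities of 16.53 to 17.15 at birth and 16.37 to 17.24 at 3 months. None of the 4 skin markers and none of the 7 globin and red cell genes tested differed between the ages after adjustment.

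Before any gene was considered, 2 newborns stood apart from the rest. On the second principal component, which held 11.8% of the variance, the Wagyu-cross newborns of birth arrays 1 and 3 lay at −29.1 and −36.1, whereas the other 12 animals lay between −5.91 and 18.8. On the first component, which held 48.7% and separated the ages, they lay at −17.3 and −20.9, nearer to the calves (19.5 to 30.7) than the other 4 newborns were (−43.6 to −36.2). Both were in the Cy5 channel and had the highest signal over background of the newborns, 3.00 and 3.82 against 2.07 to 2.53 in the other 4. The Wagyu-cross newborn of birth array 2, in the Cy3 channel, did not stand apart from the 3 Piedmontese-cross newborns. What set the 2 newborns apart was not tested. Counts over all genes and for part of the lists are also given without them. So are the values of named genes that moved most when they were left out.

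**Figure D1:**
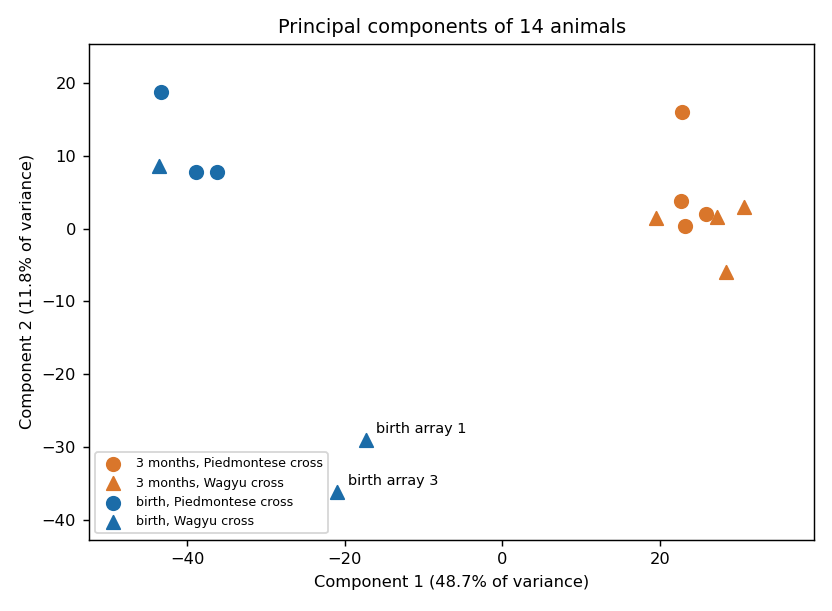
Each point is 1 animal, placed by the first and second principal components (no unit) of the log2 intensities of all genes tested. The ages separate along the first component, and the Wagyu-cross newborns of birth arrays 1 and 3 lie apart on the second, at −29.1 and −36.1.

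A large share of the muscle transcriptome differed between newborns and calves. Of 14215 genes tested, 2505 (17.6%) were higher at 3 months and 2503 (17.6%) were lower at an adjusted p under 0.05 (limma with Benjamini-Hochberg adjustment), which is 5008 genes or 35.2% in all. Most differences were small: 400 of the genes called higher and 304 of those called lower differed by more than 2-fold. In 1093 genes (7.69%) every calf was above every newborn, and in 1089 (7.66%) every calf was below every newborn. Without the 2 newborns that stood apart, 2469 genes were higher and 2419 lower, and 4064 of the 5008 calls were kept with their direction. The balance of directions depended on the scaling. The scanner software's own processed signals gave 1880 genes higher and 3148 lower, so that 37.4% of the called genes were higher in place of 50.02%, with the median of all genes shifted from −0.02 to −0.15 on the log2 scale. Centring each channel on its median in place of loess and Aquantile left 19 genes higher and 35 lower, with a median of −0.10 and a correlation within arrays of 0.745 in place of 0.301.

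Among the 12 genes with the largest rises were 4 of MHC class II antigen presentation. CD74, the invariant chain, had log2 intensities of 7.57, 7.92 and 8.06 (lowest, median and highest newborn) and of 10.08, 11.32 and 11.62 in the calves, a difference of 3.13 ± 0.26 (log2, SE) or 8.77-fold (adjusted p = 5.71e-06). BOLA-DRA, the class II alpha chain, went from 8.86, 9.09 and 9.97 to 11.68, 12.31 and 12.86, or 8.42-fold. Its beta chain partner BOLA-DRB3 went from 9.42, 9.64 and 10.31 to 11.74, 12.31 and 13.10, or 6.06-fold. The groups did not overlap in any of these genes. CIITA, the coactivator that class II genes require, had 8.62, 8.83 and 10.04 at birth against 11.45, 11.91 and 12.39, or 7.48-fold. The highest of these newborn values, 10.04, belonged to the Wagyu-cross newborn of birth array 3, and the other 5 newborns were at 8.95 or below.

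Of 17 antigen presentation genes tested, class I and class II together, 13 were called higher, where 17.6% of all genes were, 4 were not called (BOLA, BOLA-DMA, PSMB10 and TAP2) and none was lower, and the median difference was 1.13 against −0.02 over all genes. No overlap between the ages was seen in 12 members, where 7.69% of all genes had none. BOLA-DMB, which loads peptides on class II, rose by 2.34, the immunoproteasome subunit PSMB8 by 1.67, the peptide transporter TAP1 by 1.53, and B2M, the light chain of class I, by 1.13 (log2). BOLA-DQA1 was not well above background in any newborn channel, so its rise is a bound, at least 1.79-fold. The probe of the class I heavy chain BOLA ranged from 10.36 to 16.91 among the calves and from 13.70 to 14.76 among the newborns, and was not called. Beside the 4 class II genes above, the members named here were chosen after their values were seen. Leaving out the 2 newborns gave 11 members called, and median centring gave 4.

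Of 15 interferon-induced genes tested, 12 were higher, where 17.6% of all genes were, none was lower, and the median difference was 0.75. Of these 12, 7 were not well above background in every newborn channel and so could pass the filter through the calves. The count is therefore no measure of the list. ISG15, a ubiquitin-like protein induced by interferon, had log2 intensities of 7.31, 7.46 and 8.14 in newborns and of 8.17, 9.34 and 10.43 in calves, or 3.57-fold (adjusted p = 0.00102). MX1, an antiviral GTPase, had 7.29, 7.51 and 7.97 against 8.54, 9.31 and 10.27, or 3.44-fold. IRF9, a subunit of the interferon-activated transcription complex, rose 2.22-fold and IFI35 rose 2.10-fold. The groups did not overlap in these 4 genes, and ISG15 and MX1 were well above background in 5 of 6 newborn channels. With the 2 newborns left out 11 members were called. Restricting probes to those well above background in all 14 channels left 5 members called, and median centring left none. IDO1, an interferon-inducible enzyme of tryptophan breakdown picked after its values were seen, was not well above background in any newborn and was at least 3.40-fold higher at 3 months.

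Of 26 immune cell markers tested, 13 were higher, where 17.6% of all genes were, 1 was lower and 12 were not called, with a median of 0.36. Leaving out the 2 newborns gave 9 higher and 1 lower. Of the 13, 7 were not well above background in every newborn channel. They could pass the filter through the calves, so the count is no measure of the list. The complement subunits C1QA and C1QB, made mainly by macrophages, rose by 1.33 ± 0.15 and 1.00 ± 0.18, and did not overlap. Lysozyme (LYZ) rose by 1.06 ± 0.27 and perforin (PRF1), of cytotoxic lymphocytes, by 0.80 ± 0.15. PRF1 was well above background in 1 of 6 newborn channels, so its newborn level is near the limit of measurement, and its difference was 2.86 under the processed signals. The call of LYZ was lost without the 2 newborns (adjusted p = 0.0617) and without birth array 1 (adjusted p = 0.0510). Of the defining markers, picked after their values were seen, the pan-leucocyte gene PTPRC differed by 0.52 (adjusted p = 0.0124), the macrophage receptor CSF1R by 0.60, the T cell gene CD3E by 0.73 and the macrophage genes CD68 by 0.21 (adjusted p = 0.091) and CD163 by −0.22 (adjusted p = 0.434). The B cell gene CD79A was lower, at −0.55. The part of immune cell number in the antigen presentation result was not tested.

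The other 8 of the largest rises had varied roles. CIB2, a calcium- and integrin-binding protein, had log2 intensities of 7.28, 7.55 and 7.73 at birth and of 10.06, 10.66 and 11.58 at 3 months, 9.28-fold (difference 3.21 ± 0.21, adjusted p = 1.05e-06), and was well above background in 5 of 6 newborn channels. STBD1, which anchors glycogen to membranes, had 8.74, 9.09 and 10.45 against 11.83, 12.35 and 12.96, or 8.51-fold. CMBL, a hydrolase, rose 7.47-fold, and ETNPPL, which breaks down phosphoethanolamine, rose 7.39-fold. Both had the smallest adjusted p of the named genes, 2.23e-07. METTL21E, a muscle methyltransferase, had newborn values of 7.58 to 10.78 and calf values of 10.99 to 12.56, or 7.17-fold, so that the groups nearly touched. MSS51 (6.82-fold), FRZB, a secreted Wnt antagonist (5.92-fold), and the calcium sensor S100A1 (5.78-fold) completed the 12. In FRZB the 2 newborns that stood apart were the highest, at 10.41 and 9.75 against 7.68 to 8.82, and without them the difference was 3.02 in place of 2.56.

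The largest falls were led by a hormone gene. OXT, the precursor of oxytocin, had log2 intensities of 12.49, 12.79 and 14.26 in newborns and of 8.15, 8.48 and 8.73 in calves, a difference of −4.62 ± 0.29 or 24.5-fold (adjusted p = 1.04e-06). PNMT, the enzyme that makes adrenaline from noradrenaline, had 12.70, 13.80 and 14.37 against 9.45, 9.87 and 10.21, 15.03-fold lower. PDXK, the kinase that activates vitamin B6, had 12.53, 12.99 and 13.82 against 8.52, 9.34 and 9.78, 13.5-fold lower. In all 3 genes the lowest newborn was more than 2 log2 units above the highest calf. ANKRD2, a stretch-responsive ankyrin-repeat protein of muscle, fell from 13.49, 13.87 and 14.24 to 9.28, 10.55 and 11.36, or 10.97-fold. TPD52L1 was 8.49-fold, C15H11orf52 6.79-fold, angiotensinogen (AGT), the precursor of angiotensin, 6.36-fold and the oestrogen-responsive GREB1 4.799-fold lower. Since PNMT and OXT are known for adrenal medulla and hypothalamus, their neighbours in the RefSeq gene table (assembly ARS-UCD2.0) were looked up after the values were seen. TCAP, a sarcomere gene next to PNMT, was lower by 0.88 ± 0.17 (16.13, 16.77 and 17.33 against 15.66, 15.96 and 16.12). PGAP3 on the other side of PNMT was not called (0.24, adjusted p = 0.158). Beside OXT, neither AVP (−0.47, adjusted p = 0.0888) nor MRPS26 (0.08, adjusted p = 0.700) was called. AVP was bright at both ages, at 15.21 to 16.56 in newborns and 14.90 to 15.94 in calves.

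In 8 of the 12 largest falls the 2 newborns that stood apart were the lowest of the 6. Among these were AGT (12.17 and 12.41 against 13.04 or above), TPD52L1 (10.19 and 9.73 against 10.32 or above), C15H11orf52 (11.25 and 11.03 against 11.47 or above) and GREB1 (9.76 and 9.60 against 9.81 or above), which without them differed by −3.01, −3.33, −3.09 and −2.51. CDKN1A, the cell cycle inhibitor p21, had 13.18, 15.26 and 15.79 in newborns and 10.87, 11.72 and 12.59 in calves, −2.99 ± 0.46 or 7.92-fold (adjusted p = 4.44e-04). The values 13.18 and 13.45 were those of the Wagyu-cross newborns of birth arrays 1 and 3, against 15.18 or above in the other 4. The transcription factor ATOH8 (−2.34), GPAT3 (−2.28), which starts glycerolipid synthesis, and the interleukin 6 receptor IL6R (−2.27) had the same order. With the 2 newborns left out these 4 differences were −3.75, −2.91, −2.78 and −2.79. All 24 genes of the largest changes kept their call and direction without them, in either cross alone, under the processed signals and with any 1 array left out, and 16 of the 24 were called under median centring.

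**Figure D2:**
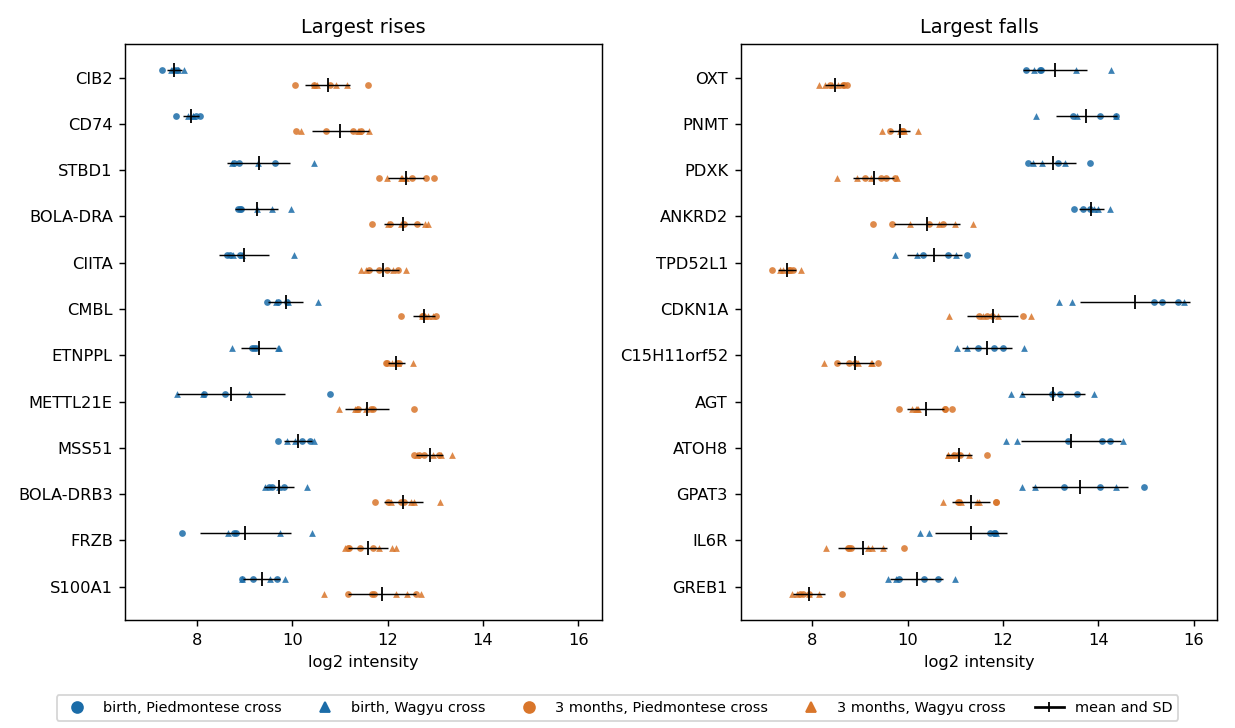
Log2 intensity (horizontal axis) of each of the 14 animals for the 12 genes with the largest rises (left) and the 12 with the largest falls (right), with mean and SD per age. No gene shown overlaps between ages, and the 2 low newborn triangles of CDKN1A, at 13.18 and 13.45, are the animals that stood apart.

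Most of the listed cytosolic ribosomal protein genes were lower at 3 months. The list is the ribosome module of the study that reported these arrays. That module was curated partly by clustering of co-expression in data that include these arrays. A shared direction of its members is therefore partly built in and is no independent support. Of 22 tested, 20 were lower, where 17.6% of all genes were, and none was higher. In 16 the ages did not overlap, where 7.66% of all genes were lower without overlap. The median difference was −0.69. RPS19, a small subunit protein, had 14.47, 14.79 and 14.83 at birth against 13.07, 13.46 and 13.57, or 2.55-fold lower (−1.35 ± 0.11, adjusted p = 3.85e-06). RPL13A and RPL13 fell by 1.29 and 1.23 on the log2 scale, RPL13A by 1.72 without the 2 newborns. The members not called, named after their values were seen, were RPL11 (0.09) and RPS15 (−0.17). Again 20 members were lower without the 2 newborns, with 14 in the Piedmontese cross alone, 18 in the Wagyu cross alone and none under median centring. Under centring the median difference of the list was −1.21.

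Of 19 glucocorticoid-responsive genes 6 were lower, where 17.6% of all genes were, and none higher, with a median of −0.33. Without birth array 2, 3 of the 19 were lower, a share near that of all genes. CEBPD, a transcription factor, had 10.83, 12.75 and 13.63 in newborns against 9.24, 10.37 and 10.83 in calves, 4.61-fold lower. Metallothionein MT2A, which binds metals, had 10.41, 12.44 and 14.08 against 9.06, 10.43 and 11.54, 3.92-fold lower, and glutamine synthetase (GLUL) was 2.19-fold lower. FKBP5, which dampens the glucocorticoid receptor, was not called (−0.45 ± 0.28, adjusted p = 0.228). The 2 newborns that stood apart were at or near the bottom in these genes, for example at 11.22 and 10.83 against 12.50 to 13.63 for CEBPD. Without the 2 newborns 8 members were lower and 2 higher, FKBP5 was called at −0.87 (adjusted p = 0.0166) and CEBPD, MT2A and GLUL differed by −2.93, −2.86 and −1.63. MT2A lost its call without birth array 2 (adjusted p = 0.0684), birth array 3 (adjusted p = 0.0563) or 3-month array 1 (adjusted p = 0.0655).

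Of 13 atrophy genes 4 were lower, where 17.6% of all genes were. EIF4EBP1, an inhibitor of translation, was 2.76-fold lower and the autophagy gene GABARAPL1 2.30-fold lower. The transcription factor FOXO3 (2.06-fold) lost its call without birth array 2 (adjusted p = 0.0973) or 3-month array 4 (adjusted p = 0.0617), and the mitophagy receptor BNIP3L (1.74-fold) without birth array 2 (adjusted p = 0.0671). With birth array 2 left out, 2 of the 13 were called. The differences of GABARAPL1 and FOXO3 were −1.64 and −1.49 without the 2 newborns. The ubiquitin ligases FBXO32 and TRIM63 were not called, at −0.48 ± 0.50 and −0.26 ± 0.39. Of 20 immediate early genes 2 were lower, a smaller share than the 17.6% of all genes: MYC, which drives growth (4.42-fold), and FOSL2, a subunit of AP-1 (2.47-fold, well above background in 5 of 8 calf channels). FOS ranged from 9.78 to 14.94 among newborns and from 9.90 to 15.04 among calves, and was not called (−0.90 ± 1.18, adjusted p = 0.577). Without the 2 newborns 5 immediate early genes were lower, MYC differed by −2.95 and FOS was called at −2.53 (adjusted p = 0.0339). Of 21 heat shock and stress genes 4 were lower, or 2 without birth array 1 or 3, and 2 higher, shares near or under the 17.6% of all genes in each direction; the chaperones HSPD1 and HSP90AB1 fell by 1.04 and 0.82, and the small heat shock proteins HSPB2 and HSPB6 rose by 1.02 and 0.98. In the set without the 2 newborns, 2 were lower and 3 higher.

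AMPD1, which deaminates AMP in working muscle, had 12.90, 13.39 and 13.66 at birth and 15.21, 15.39 and 15.72 at 3 months, 4.40-fold higher (2.14 ± 0.13, adjusted p = 7.31e-07). In the energy buffering list 5 of 9 members were higher and 1 lower, where 17.6% of all genes were called in each direction. The counts were 5 and 2 without the 2 newborns and 3 and 2 under the processed signals. Among the higher members were mitochondrial creatine kinase CKMT2 (2.11-fold) and adenylate kinase AK1 (1.69-fold, not called under the processed signals, adjusted p = 0.176). CKM itself differed by 0.09 (adjusted p = 0.655). Of 32 genes of glycolysis and glycogen, 13 were higher and 3 lower, where 17.6% of all genes were called in each direction. The median was 0.33. The higher ones included glycogen breakdown: muscle phosphorylase PYGM had 15.12, 15.31 and 15.70 against 16.56, 16.71 and 17.25 (2.74-fold), and the subunits of its activating kinase PHKB and PHKA1 rose 2.56-fold and 2.54-fold. Fructose bisphosphatase FBP2 rose 2.47-fold. The 2 newborns that stood apart, at 16.65 and 16.47, lay within the calves' range of 16.19 to 17.31, and the others at 14.75 to 15.68. Without those newborns FBP2 differed by 1.80. The glucose transporter SLC2A1, by contrast, was 3.20-fold lower, from 8.56, 10.47 and 11.28 to 8.39, 8.50 and 8.81 (−1.68, and −2.28 without the 2 newborns). Again 13 were higher and 3 lower without the 2 newborns, and 8 were higher under the processed signals.

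Mitochondrial genes gave a mixed picture that depended on the scaling. Of 38 respiratory chain genes 11 were higher, where 17.6% of all genes were, and none lower, with a median of 0.23. The higher ones included SDHC of complex II (0.81 ± 0.13), UQCRB of complex III (0.76 ± 0.16) and NDUFS1 and NDUFS3 of complex I (0.78 ± 0.27 and 0.68 ± 0.14). Of these 4, UQCRB alone kept its call under the processed signals. Under the processed signals 1 was higher and the median was −0.13, so no direction holds for this list, and the call of NDUFS1 was also lost without birth array 2 (adjusted p = 0.143), birth array 3 (adjusted p = 0.0958), 3-month array 2 (adjusted p = 0.104) or 3-month array 4 (adjusted p = 0.0828). In the citric acid cycle 2 of 18 were higher and 1 lower, shares under the 17.6% of all genes in each direction. Citrate synthase (CS) differed by 0.58, DLAT of pyruvate dehydrogenase by 0.69 and IDH2 by −0.61. Under the processed signals CS was not called (adjusted p = 0.140), and 1 gene of the list was higher and 2 lower. Of 27 genes of fatty acid uptake and oxidation 2 were higher and 7 lower, where 17.6% of all genes were called in each direction. Without birth array 3 or 3-month array 1 or 3, 1 was higher. Those lower included ECI1, which isomerises unsaturated fatty acids (11.72, 12.38 and 13.03 against 10.93, 11.04 and 11.36, or 2.44-fold), and the acyl-CoA dehydrogenase ACADM (1.75-fold). The uncoupling protein UCP3 was higher at 2.36-fold, as was the mitochondrial regulator PPARGC1A at 2.28-fold, which lost its call without birth array 3 (adjusted p = 0.0633), 3-month array 1 (adjusted p = 0.0501) or 3-month array 3 (adjusted p = 0.0526). PDK4, which blocks glucose oxidation, was not called (−0.59 ± 0.30, adjusted p = 0.145). Of the 27, 5 were higher and 6 lower without the 2 newborns.

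**Figure D3:**
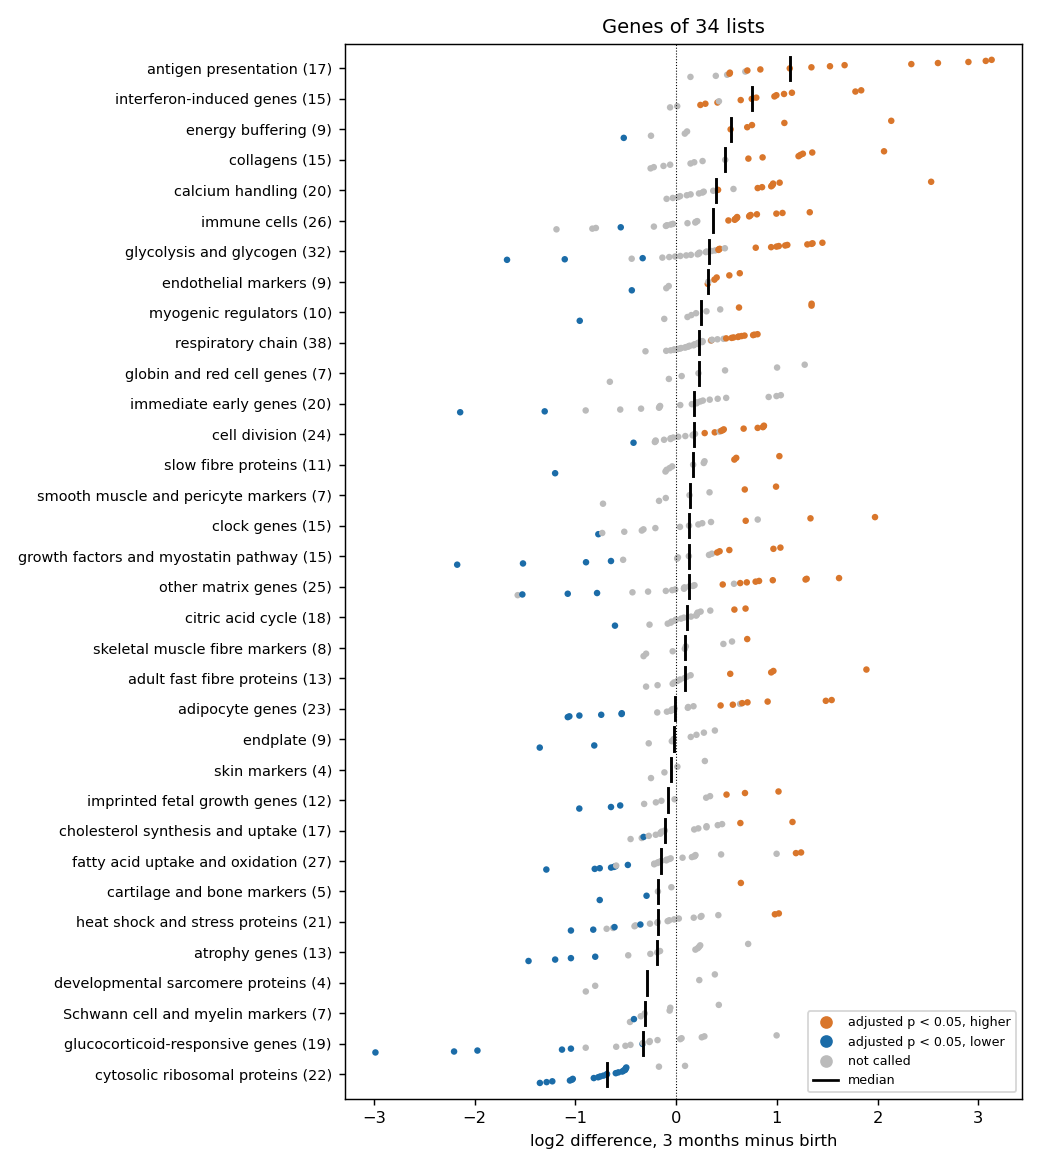
Log2 difference, 3 months minus birth (horizontal axis), of each tested gene of the 34 lists, with the number tested in brackets and the list median as a bar. Antigen presentation stands at the upper end with a median of 1.13 and the cytosolic ribosomal proteins at the lower end with −0.69.

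The main adult myosins were not called. Adult fast myosin MYH1 and slow myosin MYH7 differed by 0.01 ± 0.11 and −0.04 ± 0.14, and the light chain MYL1 by −0.02 ± 0.12, all with intensities above 16 in every animal, and no probe of the arrays was saturated. Of 13 adult fast fibre genes 4 were higher, where 17.6% of all genes were, and none lower. These included MYLK2, the kinase of the myosin light chain (3.71-fold), fast alpha-actinin ACTN3 (15.71, 16.15 and 16.39 against 16.83, 17.00 and 17.41, or 1.95-fold), the calcium buffer parvalbumin PVALB (7.45, 7.57 and 7.71 against 8.24, 8.58 and 8.82, or 1.92-fold) and fast troponin TNNT3 (0.54, not called under the processed signals, adjusted p = 0.527). Of 11 slow fibre genes 3 were higher and 1 lower, where 17.6% of all genes were called in each direction. Those higher were TPM3 (2.04-fold), TNNT1 (1.51-fold) and MYBPC1 (1.49-fold). MYBPC1 lost its call without the 2 newborns (adjusted p = 0.0863) or birth array 2 or 3 (adjusted p = 0.0642 and 0.0932). The same held without 3-month array 1 or 4 (adjusted p = 0.0682 and 0.0618). Without the 2 newborns 2 slow fibre genes were higher and none lower. CSRP3, a stretch sensor, was lower (2.30-fold) but not without the 2 newborns (adjusted p = 0.118), nor without birth array 1, birth array 3 or 3-month array 2 (adjusted p = 0.124, 0.111 and 0.0614). Myoglobin (MB), the oxygen store of muscle, rose 1.63-fold and was the only one of 8 skeletal muscle fibre markers called. Under the processed signals TNNT1, MYBPC1 and MB were not called, and the medians of the fast and slow fibre lists turned from 0.08 and 0.17 to −0.17 and −0.22. Of 20 calcium handling genes 9 were higher, where 17.6% of all genes were, and none lower. Beside S100A1, sarcolipin (SLN) rose 2.04-fold, and JPH2, which joins tubule and reticulum, rose 1.95-fold. Under the processed signals 5 of the 20 were called and SLN was not (adjusted p = 0.104).

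None of the 4 developmental sarcomere genes tested was called. Embryonic myosin MYH3 had 8.70, 10.22 and 11.16 in newborns and 8.29, 9.06 and 10.23 in calves (−0.90 ± 0.42, adjusted p = 0.114), and the 2 newborns that stood apart were at 10.30 and 11.16. It differed by −1.53 in the Wagyu cross alone (adjusted p = 0.0173), by −0.40 in the Piedmontese cross alone (adjusted p = 0.557) and by −0.47 without the 2 newborns (adjusted p = 0.447). Cardiac actin ACTC1 ranged from 11.29 to 15.09 at birth and from 11.57 to 12.91 at 3 months (−0.80, adjusted p = 0.309, and −0.08 without the 2 newborns). The median of the list turned from −0.29 to 0.06 without them. The embryonic light chain MYL4 (0.38, adjusted p = 0.0864) and cardiac troponin TNNT2 (0.23, adjusted p = 0.0711) were dim at both ages, below 9 in every animal. At the endplate, where nerve meets fibre, the fetal acetylcholine receptor subunit CHRNG (−0.02) and the adult subunit CHRNE (0.39) were not called, whereas CHRND was 2.56-fold lower. In all, 2 of 9 endplate genes were lower, a share near the 17.6% of all genes. CHRNA1, 1.76-fold lower, lost its call without any of 4 arrays (birth array 2, adjusted p = 0.119, and 3-month arrays 1, 3 and 4, adjusted p = 0.0878, 0.0890 and 0.0573). Perinatal myosin MYH8 was on the array but did not pass the filter, and MYH2 and the satellite cell gene PAX7 were not found among the probes by name.

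Single regulators of myogenesis and growth were called in both directions. Of 10 myogenic regulators 3 were higher and 1 lower, where 17.6% of all genes were called in each direction, so the counts say little about the list. Only 1 was higher when 3-month array 1 was left out. MYOD1, which commits cells to the muscle lineage, had 10.87, 11.74 and 12.84 in newborns against 11.75, 13.45 and 13.97, 2.54-fold higher. Myogenin (MYOG), which drives differentiation, had 10.93, 12.39 and 13.63 against 13.13, 13.68 and 13.96, also 2.54-fold, and lost its call without 3-month array 1 (adjusted p = 0.0585). MYF6, of mature fibres, was 1.94-fold lower, but its call was lost without birth array 1 (adjusted p = 0.0514), 3-month array 3 (adjusted p = 0.0604) or 3-month array 4 (adjusted p = 0.0612). MYF5, of satellite cells, was not called (0.20, adjusted p = 0.074). Without the 2 newborns 6 regulators were higher and 1 lower. In the myostatin pathway the ligand and its inhibitor moved oppositely: myostatin (MSTN) had 6.80, 7.36 and 8.15 against 8.09, 8.36 and 8.999, 2.05-fold higher with 4 of 6 newborn channels well above background, and follistatin (FST) 9.93, 10.93 and 11.28 against 8.88, 9.24 and 9.73, 2.87-fold lower. IGFBP3, a carrier of insulin-like growth factors, fell 4.51-fold (12.41, 13.11 and 14.02 against 10.55, 10.88 and 11.55), while IGFBP6 rose 1.95-fold. In all, 5 of 15 genes of this list were higher and 4 lower, where 17.6% of all genes were called in each direction. Of the 5, 2 were not well above background in every newborn channel and could pass the filter through the calves. The count of higher genes is therefore no measure of the list. With birth array 2 left out, 3 were higher.

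Of 12 imprinted fetal growth genes 3 were higher and 3 lower, where 17.6% of all genes were called in each direction. IGF2R, which clears IGF2, was 1.95-fold lower and did not overlap, and GRB10 and CDKN1C, which restrain growth, were 2.02-fold and 1.61-fold higher. IGF2, a fetal growth factor, was 1.57-fold lower as the mean of its probes, which disagreed: one fell by 1.22 (adjusted p = 0.00126) and the other by 0.08 (adjusted p = 0.382). H19 (−0.15, adjusted p = 0.613) and DLK1 (0.34, adjusted p = 0.0897) were not called and were bright at both ages.

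Part of the collagens and associated matrix proteins was higher at 3 months. Of 15 collagen genes 7 were higher, where 17.6% of all genes were, and none lower, with a median of 0.49. COL15A1, of basement membrane zones, had 9.91, 10.65 and 11.03 at birth and 12.06, 12.64 and 12.91 at 3 months, or 4.18-fold (2.06 ± 0.21, adjusted p = 2.80e-05). COL6A3, COL5A2 and COL3A1 rose 2.55-fold, 2.39-fold and 2.35-fold without overlap. COL1A1, the main chain of type I collagen, rose 1.81-fold with overlapping groups, and lost its call without birth array 2 (adjusted p = 0.0776) or 3-month array 4 (adjusted p = 0.0523). Among 25 other matrix genes 9 were higher and 3 lower, where 17.6% of all genes were called in each direction. Fibronectin (FN1) rose 3.07-fold, fibrillin FBN1 2.46-fold and lumican LUM 2.44-fold (a difference of 1.29, or 1.81 without the 2 newborns), while versican (VCAN), a proteoglycan of loose and fetal matrix, had 8.86, 9.73 and 9.87 against 7.67, 7.96 and 8.43 and was 2.88-fold lower. Again 7 collagens were higher without the 2 newborns, and none under median centring.

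Of 24 cell division genes 10 were higher and 1 lower, where 17.6% of all genes were called in each direction. Of these 10, 6 were not well above background in every newborn channel and could pass the filter through the calves, so the count is no measure of the list. Thymidylate synthase TYMS rose 1.83-fold (9.14, 9.59 and 9.79 against 10.18, 10.45 and 10.62) and the helicase subunit MCM5 1.75-fold, both without overlap. TOP2A, well above background in 5 of 6 newborn channels, rose 1.83-fold with overlapping groups. RRM2 was well above background in 1 of 6, and its difference was 0.86 here and 3.33 under the processed signals. TOP2A lost its call without birth array 1 (adjusted p = 0.0545). Without the 2 newborns 7 were higher and 1 lower, and without birth array 1 or 3-month array 4, 5 were higher. Of 9 endothelial markers 5 were higher and 1 lower, where 17.6% of all genes were called in each direction. Without the 2 newborns, however, 1 was higher and 1 lower, and with single arrays left out as few as 2 were higher. ENG rose by 0.53, CDH5 by 0.63 and TIE1 by 0.40, CDH5 and TIE1 losing their calls without the 2 newborns (adjusted p = 0.0599 for both) and TIE1 also without 3-month array 1 (adjusted p = 0.0506). ENG was not called under the processed signals (adjusted p = 0.295), where 1 marker was higher. VWF fell by 0.44, a call lost without birth array 2 (adjusted p = 0.0647). Of 7 smooth muscle and pericyte markers 2 were higher, where 17.6% of all genes were, and none lower, with a median of 0.13. RGS5 rose 1.99-fold and ACTA2 rose by 0.68 (log2), the latter not without 3-month array 4 (adjusted p = 0.0585). CNN1, CSPG4, MYH11, PDGFRB and TAGLN were not called. Under the processed signals 1 marker of this list was higher and 1 lower.

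Adipocyte genes were divided. Of 23 tested 7 were higher and 6 lower, where 17.6% of all genes were called in each direction. Of the 7, 4 were not well above background in every newborn channel and could pass the filter through the calves. DGAT2, which completes triglyceride synthesis, rose 2.92-fold (7.61, 8.37 and 8.85 against 9.29, 9.88 and 10.60), and the lipid droplet protein CIDEC rose 2.80-fold with 4 of 6 newborn channels well above background. AGPAT2, of phosphatidic acid synthesis, and the lipase PNPLA2 were 2.11-fold and 2.08-fold lower. Defining adipocyte genes were dim or variable: ADIPOQ lay at 6.75 to 7.05 in newborns and 6.86 to 8.02 in calves, and its call (0.44) was lost without the 2 newborns (adjusted p = 0.0728), birth array 1 (adjusted p = 0.0882), birth array 3 (adjusted p = 0.0644), 3-month array 3 (adjusted p = 0.0922) or 3-month array 4 (adjusted p = 0.0818). FABP4 (0.64 ± 0.55) and SCD (−0.19 ± 0.13) were not called. Leptin (LEP) did not pass the filter. Without 3-month array 3, 4 adipocyte genes were higher, and without the 2 newborns 4 were higher and 6 lower.

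Globins, which mark blood in a biopsy, varied more between calves than between ages. HBA ranged from 9.38 to 10.48 in newborns and from 8.42 to 13.90 in calves, HBB from 7.65 to 8.39 and from 7.50 to 12.32, and HBG from 9.60 to 11.08 and from 8.15 to 13.85. The Wagyu-cross calf of 3-month array 1 was highest in all 3 and the Piedmontese-cross calf of 3-month array 2 lowest. None was called (adjusted p = 0.286, 0.134 and 0.640). Of 15 clock genes 3 were higher and 1 lower, shares near or under the 17.6% of all genes in each direction. The higher ones included the repressors CRY2 (10.87, 11.51 and 12.34 against 12.92, 13.58 and 14.08, or 3.93-fold) and PER3. PER3 was well above background in 1 of 6 newborn channels, and its difference was 0.69 here and 2.68 under the processed signals. BHLHE40 (2.52-fold higher) and ARNTL (1.71-fold lower) lost their calls without birth array 1 (adjusted p = 0.149 and 0.0694), 2 (0.0504 and 0.113) or 3 (0.0831 and 0.0683) or 3-month array 1 (0.0682 and 0.0700), BHLHE40 also without 3-month array 2 (0.0911) and ARNTL without 3-month array 3 or 4 (0.110 and 0.139). With the 2 newborns left out, 2 clock genes were higher and 4 lower. The hour of sampling was not given in the sources used here.

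The remaining lists held few calls, where 17.6% of all genes were called in each direction. Of 17 genes of cholesterol synthesis and uptake 2 were higher, DHCR7 (2.23-fold) and FDPS (1.56-fold, not called under the processed signals, adjusted p = 0.0822, where 1 gene was higher and 2 lower), and 1 lower, NSDHL, by 0.32, a call lost without birth array 1 (adjusted p = 0.0830). Of 7 Schwann cell and myelin markers 1 was lower and none higher. Of 5 cartilage and bone markers BGLAP was higher (1.56-fold), while CHAD, a cartilage matrix protein, and COL10A1 were lower by 0.76 and 0.29, the last not without birth array 3 (adjusted p = 0.0582). Of 34 genes that were not well above background in any newborn channel and 8 that were not in any calf channel, 38 were called in all. Over all genes, 35.2% were called in either direction. These genes passed the filter through the other age alone, so the count is no result about them. Among the 8 was HIF3A, a hypoxia-related transcription factor picked after its values were seen, at least 3.33-fold lower in calves.

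The levels at the other ages place these differences. On a common scale over the 36 developmental arrays, with no test, several genes had a higher median at birth than at the fetal ages and at 3 months. PNMT had medians of 8.02, 9.03 and 9.79 at 60, 135 and 195 days of gestation, 13.87 at birth, 10.11 at 3 months and 9.33 to 10.20 later. PDXK had 8.16, 7.80 and 7.80 before birth, 13.07 at birth, 9.57 at 3 months and at most 9.31 later. CEBPD had 8.01 to 8.08 before birth, 12.85 at birth and 10.59 at 3 months, and MT2A 7.12 to 7.82, 12.58 and 10.65. These medians were high at birth and had partly returned by 3 months. Single animals overlapped in MT2A, with newborns at 10.41 to 14.08 and calves at 9.06 to 11.54 on the scale of the 7 arrays. OXT was different, with medians of 7.996, 8.29 and 13.02 before birth, 12.88 at birth, and 8.72 at 3 months.

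Other genes had a low level at birth. CIB2 had 11.45, 10.15 and 9.91 before birth, 7.71 at birth, and 10.87 at 3 months. STBD1 had 12.63 at 195 days, 9.32 at birth and 12.46 at 3 months, and FRZB 12.19, 9.04 and 11.73. For BOLA-DRA the medians were 11.30 at 195 days, 9.33 at birth and 12.43 at 3 months, and for CD74 9.25, 8.11 and 11.51. In each of these 5 genes the newborn median was below that of 195 days. RPS19 stayed at 15.21 to 15.26 before birth, was 14.78 at birth and 13.54 at 3 months, and then lay between 13.31 and 13.72.

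Genes of fetal muscle had their main step before birth. MYH3 had medians of 17.26, 17.78 and 17.69 at the fetal ages, 10.45 at birth and 9.30 at 3 months. MYL4 had 16.32, 16.36 and 15.71, then 7.96 and 8.27, and CHRNG 15.26, 15.48 and 13.94, then 9.02 and 9.06. COL3A1 had 15.85, 15.99 and 15.33, then 12.50 and 13.61, so the higher calf value remained below the fetal ones. One of the 5 animals at 135 days stood apart from its group in several of these genes, and medians are therefore given. Birth shares its slides with the fetal ages and 3 months with the later ages, which touches each step across birth to 3 months.

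**Figure D4:**
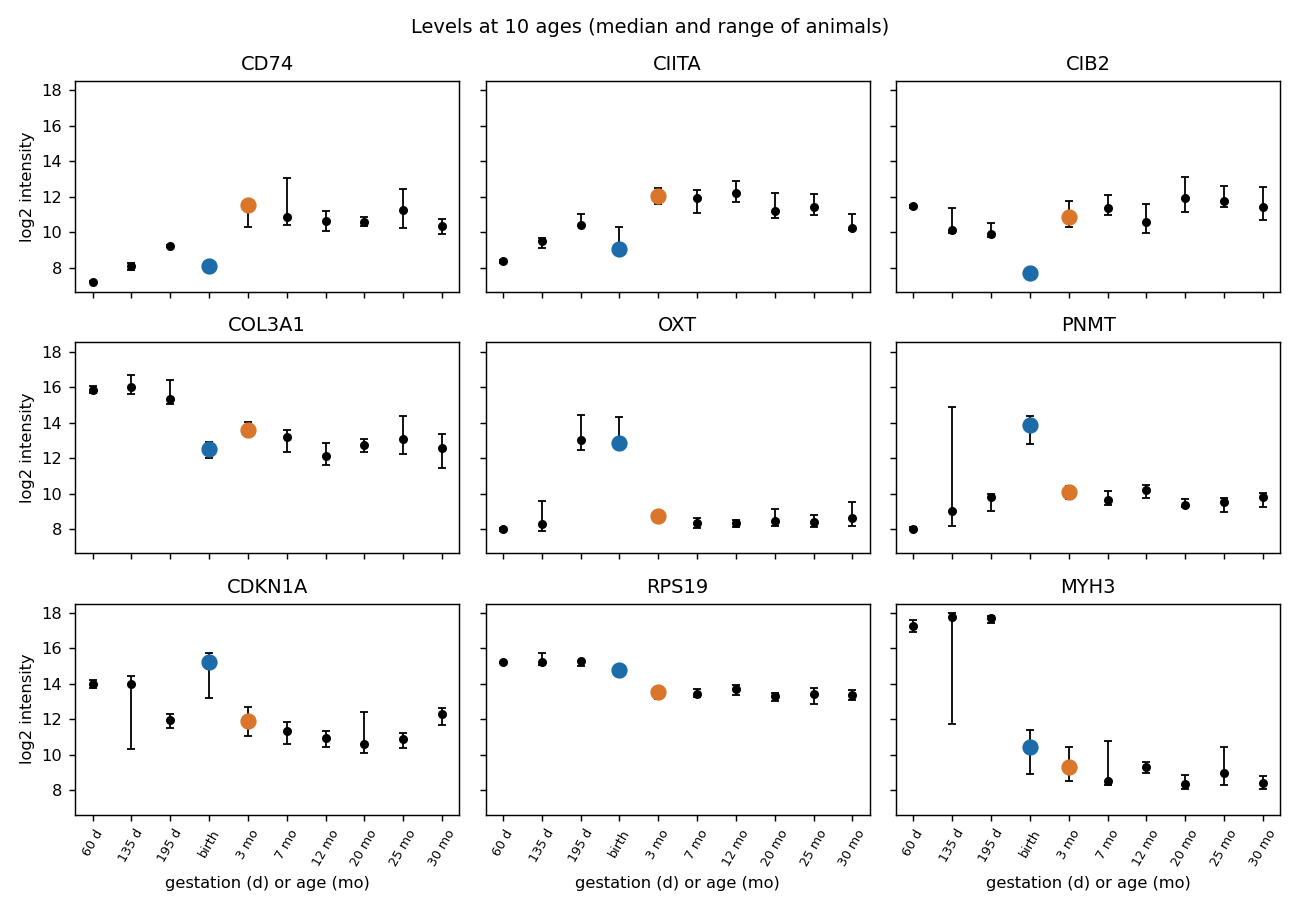
Median (point) and range (bar) of the log2 intensity of the animals at each of 10 ages, on the horizontal axis from 60 days of gestation to 30 months, for 9 genes. Birth is blue and 3 months orange; PNMT stands at 13.87 at birth against 10.11 at 3 months, and CIB2 at 7.71 against 10.87.

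The last question was whether the crosses changed differently from birth to 3 months. No gene passed (0 of 14215, 0% of those tested, smallest adjusted p = 0.137, limma interaction term), and 1287 genes had an unadjusted p under 0.05. The median SE of the difference of changes was 0.18 on the log2 scale. The 3 genes with the smallest p had no symbol in the RefSeq table and are named by their accession in the files. The change on the log2 scale was higher in the Wagyu than in the Piedmontese cross by 0.99 ± 0.14 for AU279033 (adjusted p = 0.137), by 1.26 ± 0.20 for AW336618 and by 1.07 ± 0.18 for AW464731 (adjusted p = 0.187 for both). With plain background subtraction 2 genes were called, and without birth array 2 there were 53. In the set without birth array 2, both Wagyu-cross newborns were those that stood apart, each in the Cy5 channel. Both newborns that stood apart were of the Wagyu cross, so their deviation and a difference between crosses at birth cannot be told apart.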

How the data were processed

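Muscle RNA was hybridised by the authors to 2-colour Agilent bovine arrays and read with Agilent Feature Extraction (9.5.1 in the submitters' processing notes); the deposited scanner files hold linear intensity values per spot, and the deposited log10 ratio per spot served as an alternative. The value table of the series served only as a check, and its log10 ratios for the 7 arrays did not differ from those of the scanner files. With limma (3.58.1) in R (4.3.3), mean and background intensities were corrected with normexp (offset 50), normalized by loess within and Aquantile between the 7 arrays, and split into channels. Probes well above background in at least 6 of 14 channels were kept (14788 of 21475, giving 14215 genes, 10655 with a RefSeq symbol), and the probes of a gene were averaged. Arrays hold no read depth, so their number limits the precision. Models had age, cross and dye as terms and the array as random block (correlation 0.301), with two-sided tests, and a further model had the interaction of age and cross. On simulated data, 89% of 200 genes changed by 1 log2 unit among 14215 were recovered for age with 11 false calls, and 65% with 7 for the interaction. The simulated noise was normal with 1 array correlation, and held no slide or scan effect and no newborns that stood apart. Far fewer genes changed in it than the 35.2% called here, so these rates need not hold for the real data. The labels give every channel its own animal code, so p-values measure the spread between these animals.

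Genes named were the 12 largest rises and 12 largest falls with a symbol and no overlap, 42 set genes, up to 4 called members per list (all in lists of 5 or fewer) and the 3 smallest p for the crosses; others are marked as chosen later. Some genes that the rule gave are not reported here. The 34 lists and the members were chosen with earlier results of these data known. Alternatives and the arrays left out in turn are given after the results; leaving out the 2 newborns and a scan session block were added after seeing the data.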

Additional observations from a re-analysis of the deposited data

Results flagged for a closer look

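In 12 of 302 groups of animals (151 genes named, at birth and at 3 months) the highest or lowest animal was far from its nearest neighbour for the range of its group (Dixon's criterion); chance alone gives this in about 5% of groups. At birth, the Wagyu-cross newborn of array 3, one of those that stood apart, was high in CIITA (10.04 against 8.62 to 8.95 in the other 5 newborns), ISG15 (8.14 against 7.31 to 7.60) and IGFBP6 (13.42 against 12.06 to 12.54). The Wagyu-cross newborn of array 2 was low in CKMT2 (14.03 against 14.82 to 15.04) and CDH5 (10.001 against 10.33 to 10.48). The Piedmontese-cross newborn of array 2 was low in RPS19 (14.47 against 14.73 to 14.83), and that of array 3 in RPL13 (15.40 against 16.11 to 16.49).

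At 3 months, the Piedmontese-cross calf of array 1 was low in CHRNG (7.88 against 8.70 to 9.01), that of array 2 in CMBL (12.28 against 12.73 to 13.03), and that of array 3 was high in METTL21E (12.56 against 10.99 to 11.69). The Wagyu-cross calf of array 2 was low in IGF2R (12.76 against 13.34 to 13.52), and that of array 3 high in FOSL2 (7.48 against 7.11 to 7.24). The calf of array 2 in the Wagyu cross and that in the Piedmontese cross shared an array with 797 spots marked as outliers by the scanner software, against 7 to 24 on the other arrays of 3 months.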

How the results depend on the processing

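The counts of genes called moved most with the normalization and with the number of animals. Median centring of each channel left 19 genes higher and 35 lower. Of the lists, 4 antigen presentation genes, 0 interferon-induced genes and 0 collagens were higher and 0 ribosomal protein genes lower. The median differences of these lists under centring were 0.93, 0.70, 0.19 and −1.21 in the same order. No call changed direction, although the sign of 79 of the 5008 called genes turned. Requiring signal in all 14 channels left 5 interferon-induced genes higher. The Piedmontese cross alone gave 1620 genes higher and 1518 lower, and the Wagyu cross alone 1475 and 1230. Leaving out each array in turn gave 1884 to 2250 genes higher and 1787 to 2328 lower. Means of the channels of an array gave 2425 and 2210, no array block 3076 and 3089, and the scan session as block in place of the array 3002 and 3019. For the crosses, plain background subtraction called 2 genes, and leaving out each array in turn called 0 to 53, with 53 without birth array 2, 3 without birth array 1 and 1 without birth array 3. Among the 155 genes that the naming rule gave, none reversed under any setting, 113 lost their call under centring, 22 lost it with some array left out, and these included none of the 24 largest changes. No paired analysis was possible because the animals of the 2 ages were all different and array numbers link no animals.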
